A study of Homo sapiens with 6 samples.

Results

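The mitochondrial ribosomal protein genes were taken as every row of the deposited gene table whose symbol is MRPL or MRPS followed by a number, with at most one further letter from A to C, and whose description does not call it a pseudogene. This gave 78 genes of 60605 rows, 49 with MRPL symbols (large subunit) and 29 with MRPS symbols (small subunit). The rule reads names only and no measured value, but the family was chosen with earlier results of these data known. RNA-seq was done on Huh-7, an established human hepatoma line. Treated libraries (3) came from cells given pectolinarigenin, a plant flavonoid, at 100 µM for 24 h, and control libraries (3) from cells given the DMSO vehicle with 0 µM of the compound. Both groups had received an oleic acid load (100 µM, 24 h) and starvation, so that every comparison is between lipid-loaded cells of one tumour line. Whether the 3 libraries per group are separate cultures is not stated; p-values here reflect library-to-library spread, and that spread may be technical.

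Mitochondria carry their own ribosome, which translates the few proteins encoded in mitochondrial DNA, all of them subunits of the oxidative phosphorylation machinery. Its rRNAs are transcribed inside the organelle, whereas its proteins are encoded in the nucleus, made in the cytosol and imported. Some of these proteins descend from bacterial ribosomal proteins and others are found only in mitochondrial ribosomes. Several symbols do not follow the final structure: the products of MRPS30 and MRPS18A sit in the large subunit, and MRPS36 encodes a component of the 2-oxoglutarate dehydrogenase complex.

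The libraries held 15140022 to 20311261 counts, of which treated libraries gave 0.394%, 0.409% and 0.423% and control libraries 0.374%, 0.381% and 0.383% to the 78 genes. Summed over 8 hepatocyte or hepatoma markers, the level was 8851 to 9624 FPKM (fragments per kilobase of gene, scaled to depth) in treated libraries and 12197 to 12391 FPKM in control libraries, and 7 of the 8 fell. Of the other marker lists, 5 fibroblast genes summed to 0.09 to 0.10 FPKM in treated and 0.20 to 0.23 FPKM in control libraries, and COL1A2, DCN and LUM were listed at 0 FPKM in every library. The 3 endothelial markers summed to 1.16 to 1.37 FPKM in treated and 2.32 to 2.63 FPKM in control libraries. The 4 leukocyte markers summed to 54.6 to 78.6 FPKM in treated and 42.4 to 42.8 FPKM in control libraries, most of it LYZ, while PTPRC was at most 0.01 FPKM. They did not move together: mean LYZ was 64.35 FPKM in treated and 39.6 FPKM in control libraries. Mean CD14 was lower in treated (1.97 FPKM) than in control libraries (2.98 FPKM). The part of these marker differences in the results below was not tested. In bulk RNA, fewer cells of a kind and less RNA per cell cannot be told apart.

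Mitochondrial ribosomal protein transcripts were more often higher than lower after pectolinarigenin, by small amounts. With edgeR's quasi-likelihood test and Benjamini-Hochberg adjustment over all 12829 genes with a mean of at least 1 FPKM, at an adjusted p threshold of 0.05, 27 of the 77 tested members rose and 7 fell. Across all tested genes 25.3% were called higher and 25.3% lower, 50.6% in all, against 35.1% higher and 9.09% lower among the tested members. The median log2 fold change (treated over control) was 0.11 over the members and 0.00071 over all tested genes. The members ranged from -0.34 to 0.70, only 2 of them moved by more than 0.5, and 0 reached 1. The count of members called lower was 11 without treated library 3 and 4 without control library 2. With the filter raised to a mean of at least 5 FPKM, 28.99% of members and 28.7% of all tested genes rose. Falls were then 11.59% of members and 28.68% of all tested genes.

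The library values gave a similar picture without a test. FPKM does not carry the scaling factors used in the test, which averaged 1.01 in treated and 0.987 in control libraries. Treated FPKM therefore lies slightly higher relative to control than the tested values do. In 39 members all treated FPKM values lay above all control values, and in 6 all lay below. Over all tested genes the groups did not overlap for 58.9%, with treated above in 33.5% and below in 25.4%. All 27 members that rose had groups that did not overlap, as did 6 of the 7 that fell. A further 12 members had every treated value above every control value without passing the test. The 43 members that did not pass had log2 fold changes between -0.20 and 0.24.

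**Figure D1:**
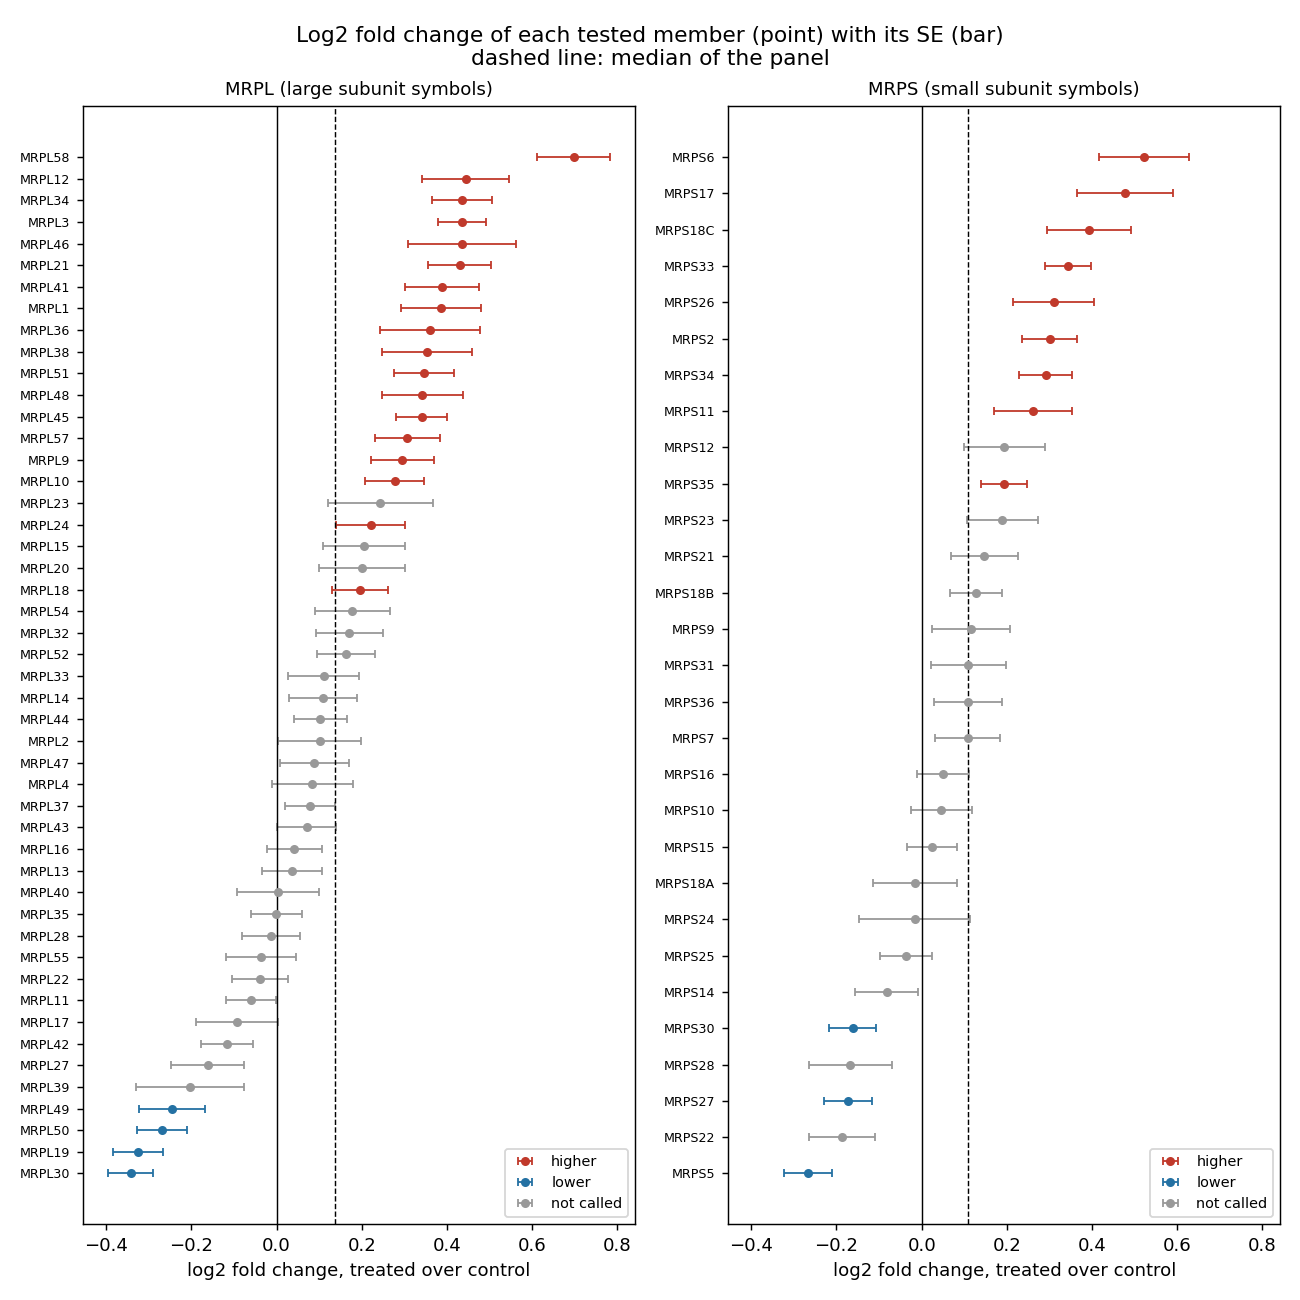
Log2 fold change, treated over control (x axis), of each of the 77 tested members (points) with its standard error (bars), MRPL symbols left and MRPS symbols right, with the median of each panel dashed. Red points rose, blue points fell and grey points did not pass the test; the values run from -0.34 for MRPL30 to 0.70 for MRPL58.

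Among the large-subunit symbols, 18 of 48 tested genes rose (37.5%) and 4 fell (8.33%), with a median log2 fold change of 0.14. Over all tested genes 25.3% rose and 25.3% fell. The member with the smallest p was MRPL58, also known as ICT1, a peptidyl-tRNA hydrolase built into the large subunit that releases chains from stalled ribosomes. MRPL58 (ENSG00000167862, chromosome 17, 75012670 to 75021261, plus strand, GRCh38) had 22.1, 25.5 and 23.5 FPKM in treated libraries, against 14.7, 14.1 and 13.8 FPKM in control libraries. The lowest treated value exceeded the highest control value, and the log2 fold change was 0.70 ± 0.086 (SE), a fold of 1.62 (adjusted p = 1.09e-05).

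MRPL3, whose bacterial counterpart reaches close to the peptidyl transferase centre, had 43.8, 45.0 and 46.9 FPKM in treated libraries, against 32.2, 33.3 and 32.3 FPKM in control libraries. The groups were well separated, and MRPL3 rose by 0.44 ± 0.056 on the log2 scale (adjusted p = 1.61e-05). The gene lies on chromosome 3 at 131462212 to 131502983 on the minus strand. MRPL34, another protein with a bacterial counterpart, had 26.0, 27.3 and 27.5 FPKM in treated libraries and 19.3, 20.2 and 18.6 FPKM in control libraries, and rose by 0.44 ± 0.070 (adjusted p = 0.000121). Of its exon length, 13.2% overlaps another gene.

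MRPL21 had 23.0, 24.2 and 27.7 FPKM in treated libraries and 17.7, 18.1 and 18.3 FPKM in control libraries (log2 fold change 0.43 ± 0.074 SE, adjusted p = 0.000205). Its treated library 3 was the highest, but the other treated libraries were also above all controls. MRPL45, a mitochondria-specific protein at the exit of the nascent chain that helps to tether the ribosome to the inner membrane, had 55.1, 59.1 and 59.5 FPKM in treated libraries and 42.3, 45.7 and 45.7 FPKM in control libraries (0.34 ± 0.060, adjusted p = 0.000245). Counts on MRPL45 pseudogene rows came to 4.30% of those on the gene. MRPL12 forms the stalk that recruits translation factors and is also known to bind the mitochondrial RNA polymerase. It had 20.4, 17.5 and 21.8 FPKM in treated libraries and 13.6, 14.1 and 15.3 FPKM in control libraries (0.44 ± 0.10, adjusted p = 0.00205). The gene shares 68.2% of its exon length with an overlapping annotated gene on the same strand, so its counts are uncertain.

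There were 4 falls among genes with large-subunit symbols, which makes the direction within the subunit mixed. MRPL30 (chromosome 2, 99181079 to 99197626, plus strand) had 26.7, 27.1 and 27.7 FPKM in treated libraries, against 32.8, 33.7 and 34.1 FPKM in control libraries. All treated values were below all control values, its log2 fold change being -0.34 ± 0.053 (adjusted p = 8.61e-05), and 19.5% of its exon length overlaps another gene. MRPL19, homologous to a bacterial protein at the contact between the subunits, had 7.85, 7.60 and 7.13 FPKM in treated and 9.38, 8.78 and 9.37 FPKM in control libraries (-0.33 ± 0.059, adjusted p = 0.000316).

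The remaining 2 that fell, MRPL50 and MRPL49, encode mitochondria-specific proteins. MRPL50 had 17.6, 18.9 and 18.7 FPKM in treated and 21.4, 21.1 and 22.4 FPKM in control libraries (log2 fold change -0.27 ± 0.059 SE, adjusted p = 0.00149). MRPL49 had 16.6, 16.3 and 14.6 FPKM in treated and 16.5, 20.1 and 18.2 FPKM in control libraries (-0.25 ± 0.077, adjusted p = 0.0154). It was the only member called lower whose groups overlapped, and without control library 2 it gave -0.17 with an adjusted p of 0.121. For MRPL49, 11.6% of the exon length overlaps another gene.

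Among the small-subunit symbols, 9 of 29 genes rose (31.0%) and 3 fell (10.3%), with a median log2 fold change of 0.11. Over all tested genes 25.3% rose and 25.3% fell. Among genes between the 5th and 95th percentile of member level 28.8% rose and 27.0% fell, so the share of rises was close. MRPS33, a mitochondria-specific protein, had the smallest p of the class, with 16.3, 16.4 and 16.9 FPKM in treated libraries and 12.6, 12.7 and 12.7 FPKM in control libraries (0.34 ± 0.055 SE, adjusted p = 0.000114). The libraries of each group were almost level and the groups were apart. MRPS6 (chromosome 21, 34073224 to 34143034, plus strand), a homologue of a bacterial small-subunit protein, was low, with 3.50, 3.48 and 4.06 FPKM in treated and 2.58, 2.35 and 2.60 FPKM in control libraries. Its log2 fold change of 0.52 ± 0.105 (adjusted p = 0.000787) was the highest of the class.

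MRPS34, a mitochondria-specific protein, had 54.2, 57.3 and 56.2 FPKM in treated and 43.2, 44.0 and 46.5 FPKM in control libraries (log2 fold change 0.29 ± 0.061 SE, adjusted p = 0.00108). MRPS2 had 23.5, 22.4 and 24.1 FPKM in treated and 17.7, 18.6 and 19.2 FPKM in control libraries (0.30 ± 0.064, adjusted p = 0.00118). MRPS17, whose bacterial homologue binds the small rRNA, had 5.19, 6.11 and 5.84 FPKM in treated and 3.66, 4.24 and 4.12 FPKM in control libraries (0.48 ± 0.113, adjusted p = 0.00265). In these 3 genes each treated library was above each control library. For MRPS17, 21.8% of the exon length overlaps another gene, and for MRPS2 10.15%.

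MRPS5 (chromosome 2, 95087207 to 95149434, minus strand), whose bacterial homologue lies near the decoding site, had 11.6, 12.8 and 11.8 FPKM in treated and 13.9, 14.4 and 14.0 FPKM in control libraries, and fell (log2 fold change -0.27 ± 0.057 SE, adjusted p = 0.00114). MRPS27, an RNA-binding pentatricopeptide repeat protein, had 14.4, 15.6 and 14.2 FPKM in treated and 16.1, 16.4 and 16.1 FPKM in control libraries (-0.17 ± 0.056, adjusted p = 0.0178). MRPS30 had 21.8, 20.4 and 19.6 FPKM in treated and 22.8, 22.1 and 22.5 FPKM in control libraries (-0.16 ± 0.056, adjusted p = 0.0245). Of these 3, MRPS5 fell the most. The calls of MRPS27 and MRPS30 ended in several alternatives: MRPS27 was called in 9 of 15 (adjusted p 0.0106 to 0.0902) and MRPS30 in 7 of 15 (0.00568 to 0.111).

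**Figure D2:**
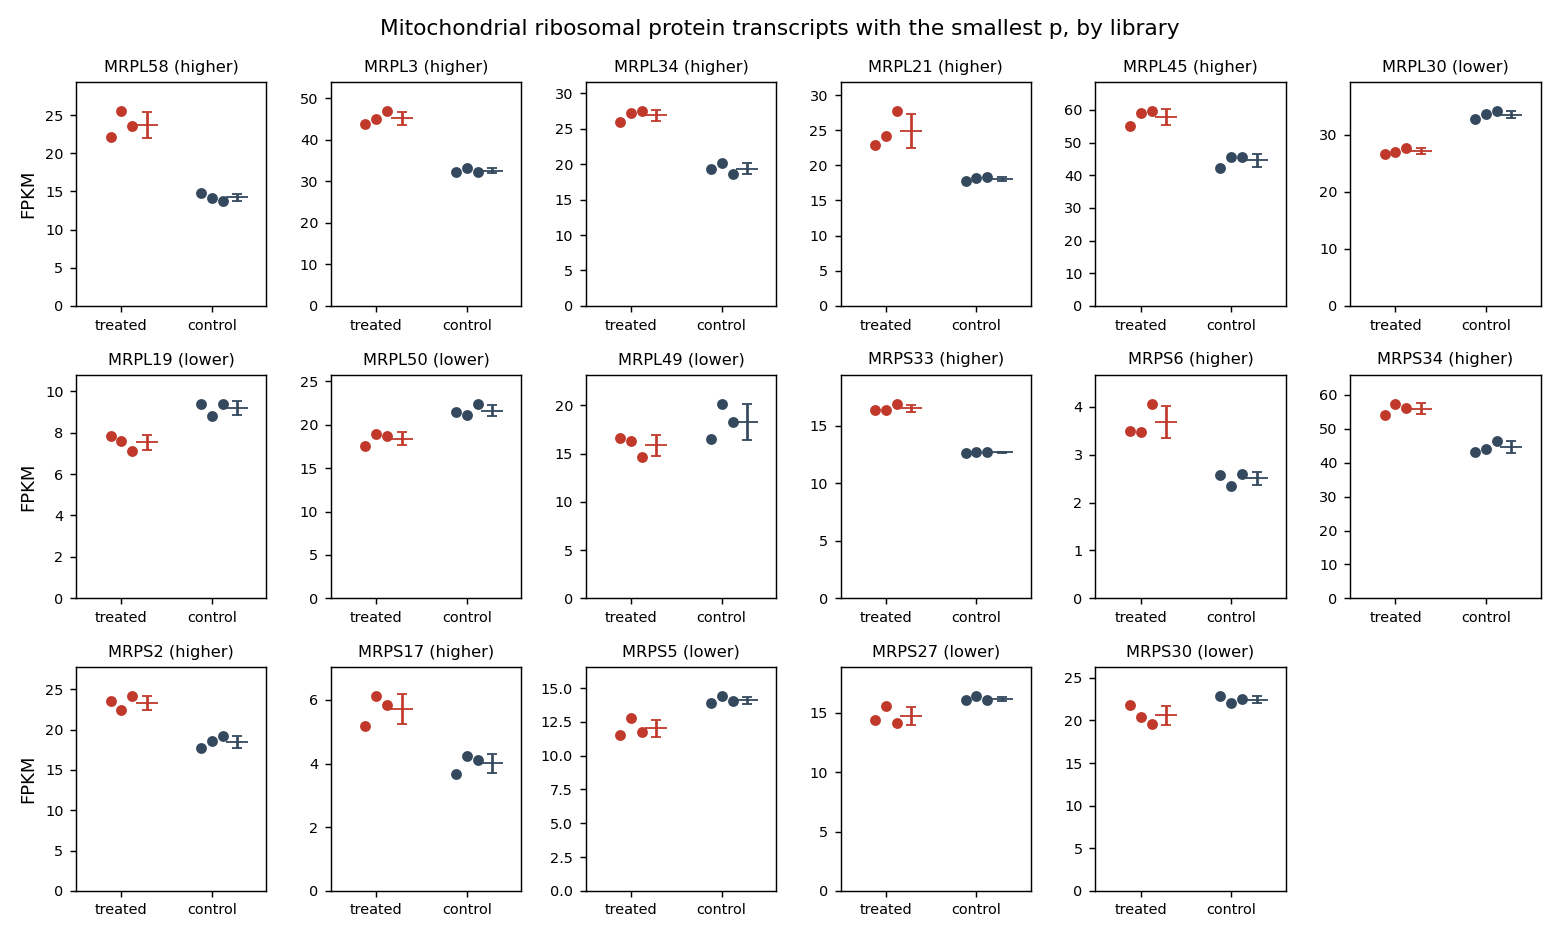
FPKM (y axes, each starting at 0) of 17 members that rose or fell, up to 5 with the smallest p per symbol class and direction, in the 3 treated (red, left) and 3 control (dark blue, right) libraries; points are libraries and the bar beside them is the mean with its SD. In every panel but that of MRPL49 the points of the 2 groups do not overlap.

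The symbols whose products are not where the name puts them did not share a direction. MRPS18A, in the large subunit, had 11.7, 11.7 and 12.4 FPKM in treated and 10.4, 12.2 and 12.9 FPKM in control libraries (log2 fold change -0.015 ± 0.099 SE, adjusted p = 0.913), and 47.0% of its exon length overlaps another gene. MRPS36 had 15.3, 17.0 and 17.1 FPKM in treated and 15.2, 14.9 and 14.6 FPKM in control libraries (0.11 ± 0.080, adjusted p = 0.275). Neither passed the test, while MRPS30 fell. Placed by structure, the large subunit had 18 of 50 tested genes higher and 5 lower (median 0.11), and the small subunit 9 of 26 higher and 2 lower (median 0.12). The shares were 36% and 10% in the large subunit, 34.6% and 7.69% in the small, and 25.3% and 25.3% over all tested genes. Without control library 2 the genes called lower numbered 3 and 1 in these subunits, and in the small subunit they numbered 1 without control library 3 and 4 without treated library 3.

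The order of the subunits therefore depended on how genes were assigned. By symbol the MRPL median exceeded the MRPS median by 0.027 on the log2 scale, and by structure the large-subunit median was lower (difference -0.011). The difference by symbol ranged from 0.0020 to 0.060 when single libraries were left out, with the highest value without control library 3, and was 0.0017 with no filter and 0.0010 at a mean of at least 5 FPKM. Summed FPKM of the MRPL genes was 1076, 1130 and 1201 in treated libraries and 971, 1008 and 1005 in control libraries. For the MRPS genes it was 548, 565 and 574 in treated libraries and 495, 510 and 508 in control libraries. The ratio of the sums was 2.02 ± 0.066 in treated and 1.97 ± 0.0097 in control libraries (SD, n = 3 each), and the groups overlapped. By descent, 15 of 45 proteins with a bacterial homologue rose and 3 fell (median 0.11), and 12 of 31 tested mitochondria-specific proteins rose and 4 fell (median 0.13). These shares were 33.3% and 6.67% for the former and 38.7% and 12.9% for the latter, against 25.3% and 25.3% of all tested genes.

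Levels spanned a wide range among the members: 7 averaged at least 50 FPKM, 51 were between 10 and 50 FPKM and 20 were under 10 FPKM, with a median of 15.7 FPKM over the tested genes. MRPL11, at the base of the stalk, had the highest mean, with 80.5, 87.7 and 89.4 FPKM in treated and 85.7, 85.1 and 91.0 FPKM in control libraries, and these overlapped (log2 fold change -0.06 ± 0.059 SE, adjusted p = 0.418). MRPS35, the highest MRPS gene, had 92.3, 91.1 and 95.9 FPKM in treated and 77.5, 79.8 and 80.8 FPKM in control libraries and rose (0.19 ± 0.054, adjusted p = 0.00788). The mean levels of these 2 genes were close, at 86.6 and 86.2 FPKM. MRPL53 was the one member under the filter, with 2, 8 and 3 counts in treated and 5, 7 and 10 counts in control libraries. Among genes between the 5th and 95th percentile of member level (3.09 to 53.4 FPKM), 28.8% of 8265 rose and 27.0% fell, with a median of 0.012.

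**Figure D3:**
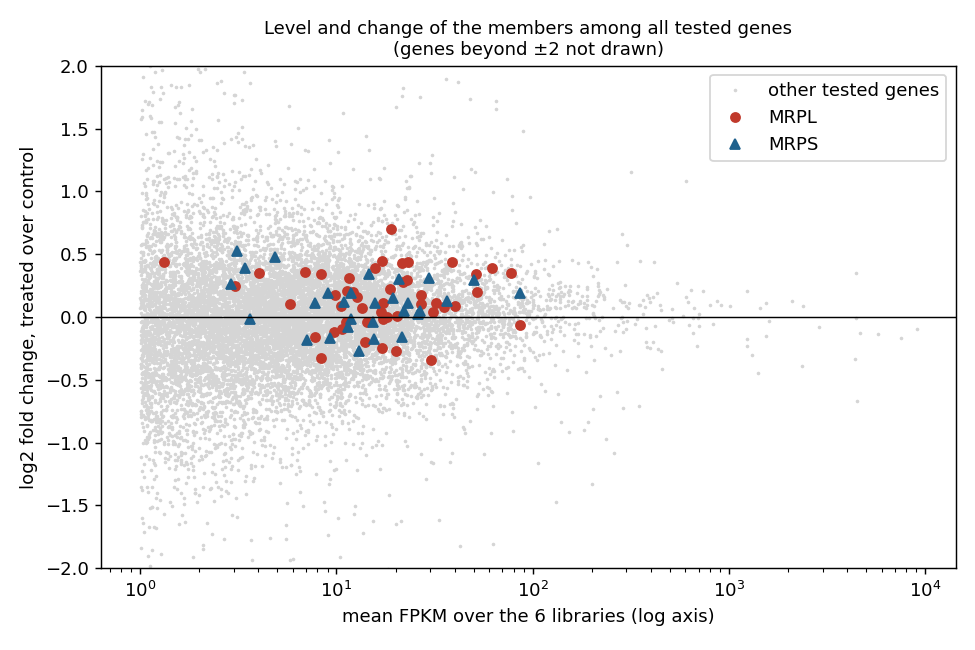
Mean FPKM over the 6 libraries (x axis, log scale) against log2 fold change, treated over control (y axis), for MRPL genes (red circles), MRPS genes (blue triangles) and other tested genes (grey; those beyond 2 in either direction are not drawn). Members lie between -0.34 and 0.70 at every level.

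The size of the shift differed between treated libraries. The median deviation of the tested members from the control mean was 0.046, 0.117 and 0.223 (log2) in treated libraries 1, 2 and 3, and -0.020, 0.0067 and 0.0099 in control libraries 1, 2 and 3. Treated library 3 was the highest treated library in 48 of the 77 tested members, and treated library 1 the lowest in 49. Without treated library 3 the member median was 0.083, and without treated library 1 it was 0.17. The median coefficient of variation of a member was 6.91% in treated libraries and 4.30% in control libraries. The share of counts on cytosolic ribosomal protein genes was 4.76%, 5.24% and 5.22% in treated and 4.53%, 4.58% and 4.63% in control libraries. What part library composition has in the member values was not tested.

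**Figure D4:**
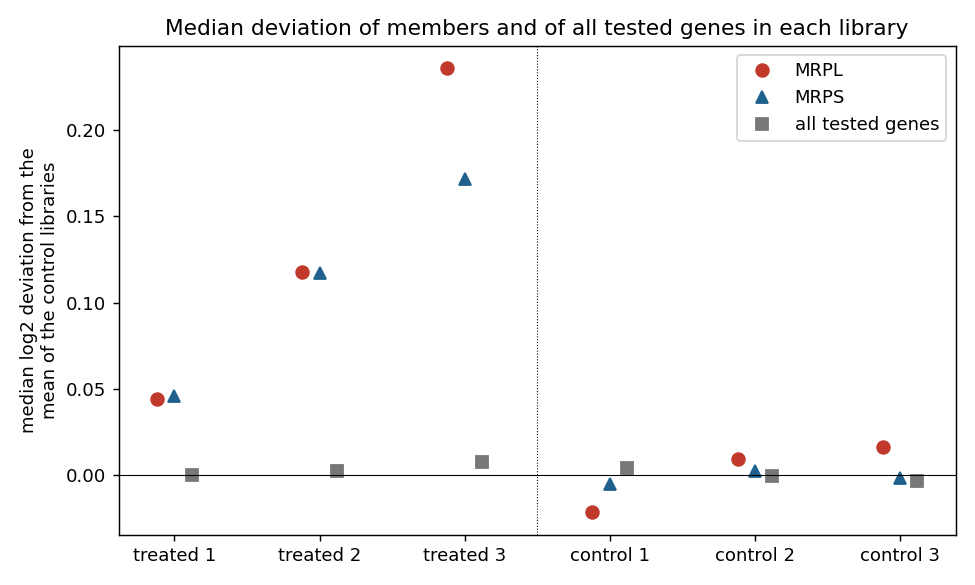
Median log2 deviation from the mean of the control libraries (y axis) in each library (x axis, treated left, control right) for MRPL genes (red circles), MRPS genes (blue triangles) and all tested genes (grey squares). In treated library 3 the MRPL median was 0.236 and the MRPS median 0.172, while the median of all genes stayed near 0 in each library.

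The 3 members whose depth-scaled log2 counts followed MRPL58 most closely over the 6 libraries were MRPL34 (Pearson r = 0.98), MRPL3 (0.98) and MRPS33 (0.97). All share the difference between groups, and the values describe these libraries only.

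Proteins of the mitochondrial ribosome with other symbols went both ways. AURKAIP1, a small-subunit protein, had 32.8, 36.5 and 38.2 FPKM in treated and 25.3, 26.9 and 28.1 FPKM in control libraries and rose (log2 fold change 0.39 ± 0.072 SE, adjusted p = 0.00043). DAP3, a GTP-binding small-subunit protein, rose by 0.18 ± 0.060 (adjusted p = 0.0212); without treated library 3 it did not pass. PTCD3, an RNA-binding small-subunit protein, had 16.5, 15.0 and 15.4 FPKM in treated and 20.4, 19.9 and 19.8 FPKM in control libraries and fell (-0.39 ± 0.056, adjusted p = 3.65e-05). CHCHD1 (0.23, adjusted p = 0.0638) and GADD45GIP1 (0.05, adjusted p = 0.625) did not pass.

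Genes for assembly of the ribosome and modification of its rRNA were also more often higher than lower: 8 of 26 tested rose and 1 fell, with a median of 0.14. The shares were 30.8% higher and 3.85% lower, against 25.3% and 25.3% of all tested genes. The helicases DDX28 (log2 fold change 0.57) and DHX30 (0.26) and the large-rRNA methyltransferase MRM3 (0.36) rose. TFB1M, which methylates the small rRNA, fell (-0.35, adjusted p = 0.00544). Of 17 translation factors 5 rose and 1 fell (29.4% and 5.88%, median 0.11). The recycling factor MRRF (0.29), the initiation factor MTIF2 (0.23) and the formyltransferase MTFMT (0.34) rose. LRPPRC, which stabilises mitochondrial mRNAs, fell (-0.18). MTFMT did not pass without treated library 3 or control library 1, where it was 0.22.

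Of 21 genes for mitochondrial transcription, DNA replication and RNA maturation, 8 rose (38.1%) and 2 fell (9.52%), with a median of 0.048. Across all tested genes the shares were 25.3% and 25.3%. TWNK, the mitochondrial DNA helicase, had 11.4, 10.1 and 13.3 FPKM in treated and 5.82, 6.33 and 6.01 FPKM in control libraries (log2 fold change 0.90 ± 0.096 SE, adjusted p = 2.61e-06). Its exons overlap those of the member MRPL43 on the opposite strand, and the strand setting of the counting is not stated. PDE12, which shortens poly(A) tails, rose by 0.56 and TRMT10C, a subunit of mitochondrial RNase P, by 0.47. POLG, the mitochondrial DNA polymerase, fell (-0.56), as did PRORP, the nuclease of RNase P (-0.47). PRORP was called in 10 of 14 alternatives (-0.59 to -0.25), and not without treated library 1 or control library 1. Its mean was 1.24 FPKM, close to the filter of 1 FPKM. The mitochondrial aminoacyl-tRNA synthetases had 4 of 16 tested higher, 7 lower and a median of -0.13. Counts were 4 higher and 5 lower by limma and without TMM factors, and 1 higher and 5 lower by DESeq2. MARS2 (0.65), NARS2 (0.23) and FARS2 (0.29) rose and EARS2 (-0.33) and AARS2 (-0.31) fell; NARS2 and FARS2 each lost the call in several leave-one-out fits.

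Of 9 tested regulators named in the literature on mitochondrial gene expression, 7 rose and 0 fell by edgeR, against 25.3% and 25.3% of all tested genes. Falls were also 0 at an unadjusted p under 0.05 and by DESeq2 or limma. Rises were 6 by DESeq2, by limma and by edgeR without treated library 3. With all libraries, NRF1 passed narrowly by edgeR (adjusted p = 0.0493). The growth-related transcription factor MYC had 16.9, 13.3 and 18.9 FPKM in treated and 5.03, 5.26 and 5.30 FPKM in control libraries (log2 fold change 1.62 ± 0.108 SE, adjusted p = 2.95e-08). The transcription factor YY1 rose by 0.31 ± 0.054 (adjusted p = 0.000244) and the coactivator PPRC1 by 0.34 ± 0.065 (adjusted p = 0.000497). Among cytosolic ribosomal proteins 25 of 84 tested (29.8%) rose and 0 fell by edgeR, with a median of 0.12. Falls were also 0 at an unadjusted p under 0.05, by DESeq2 and by limma, and 1 by edgeR without treated library 3. The count of rises was 45 without TMM factors and 35 by limma. RPL22L1 (0.55) and RPL28 (0.37) had the smallest p.

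Among the 13 mRNAs made inside the mitochondrion 1 rose (7.69%) and 4 fell (30.8%) by edgeR with all libraries, with a median of -0.093. The shares among all tested genes were 25.3% higher and 25.3% lower, so the share of falls was close to that of all genes. The count of falls depended on the fit, with 1 by limma, 2 without TMM factors and 8 without treated library 3. MT-ND5 had 1247, 1145 and 1230 FPKM in treated and 1613, 1598 and 1593 FPKM in control libraries (log2 fold change -0.45 ± 0.058 SE, adjusted p = 1.71e-05). MT-ND4 had 4512, 4431 and 6203 FPKM in treated and 3898, 3827 and 3839 FPKM in control libraries (0.35 ± 0.103, adjusted p = 0.0101), and 0.17 without treated library 3. MT-ATP8 (-0.39) and MT-ND6 (-0.23) had overlapping groups and were -0.61 and -0.38 without treated library 3; they were called in 8 and 7 of 15 alternatives. Of the rRNAs, MT-RNR2 of the large subunit fell (-0.17, adjusted p = 0.0379, with overlapping groups and a call in 9 of 15 alternatives) and MT-RNR1 of the small subunit did not pass (0.13, adjusted p = 0.214).

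**Figure D5:**
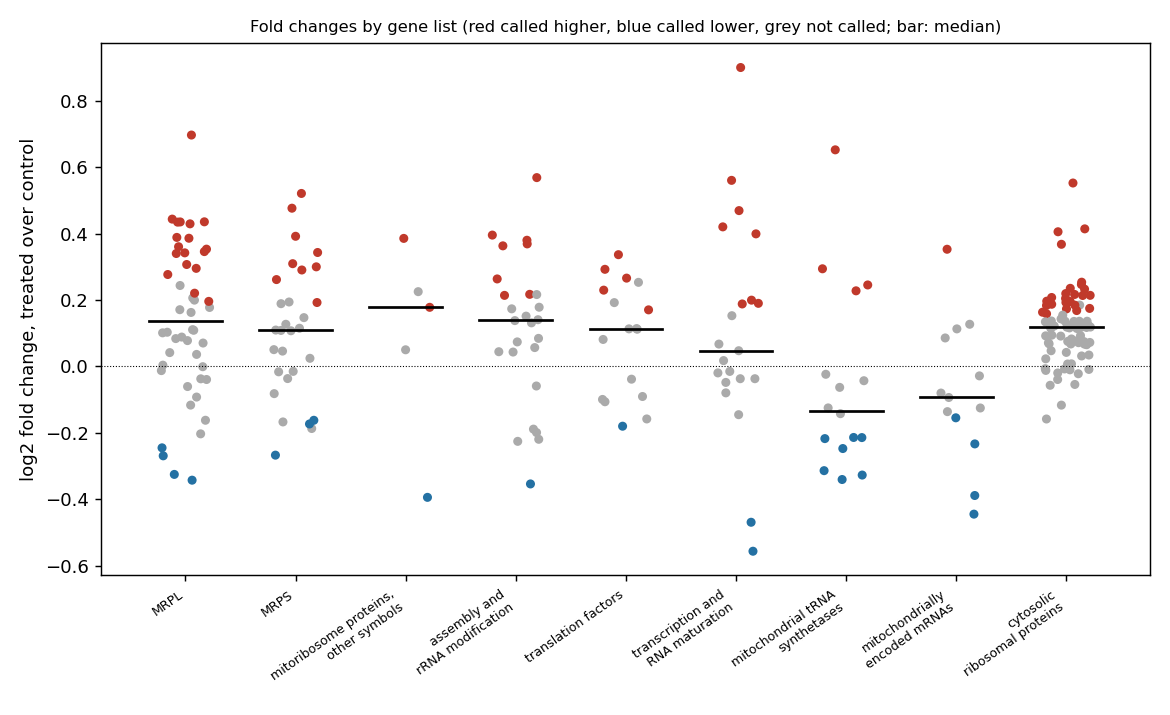
Log2 fold change, treated over control (y axis), of each tested gene in the MRPL and MRPS classes and in 7 other gene lists (x axis); red points rose, blue points fell, grey points did not pass the test and bars are medians. The medians run from -0.13 for the mitochondrial tRNA synthetases to 0.18 for the 5 ribosomal proteins with other symbols.

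Promoter sequence was available from RefSeq (GRCh38.p14, 250 bases before to 50 after the start) for 69 of the 78 members. Of 5 motifs searched on both strands, without removing overlaps between motifs, the YY1 motif AAGATGGC was in 21 members (30.4%), against 3.52% of 27305 genes and 7.02% of the 8979 tested genes with a promoter. The motif was in the promoters of 5 of 25 members that rose, 4 of 7 that fell and 12 of 36 that did not pass, so members of both directions carried it. Of the 22 sites 17 lay within 50 bases of the start, 16 after it and 18 on the strand of the gene. The ETS motif CCGGAAGT was in 17.4% of members (11.0% of tested genes), the NRF1 core motif in 13.0% (14.2%), the E-box CACGTG in 13.0% (12.8%) and the amino acid response motif TGATGNAA in 1.45% (2.70%). A match describes letters only and is not a binding site.

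The YY1 sites of the members that rose and of those that fell are shown to compare their surroundings, 5′ to 3′ on the strand of the motif with the motif in capitals. The first 5 belong to members that rose and the last 4 to members that fell.
MRPL36: tgccaggaaggAAGATGGCggcgggggggg
MRPL38: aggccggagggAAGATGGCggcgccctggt
MRPL45: tttgcgggaacAAGATGGCagcccccatac
MRPL46: tgggagaacgaAAGATGGCggcgcccgtaa
MRPL51: gggtaaggcccAAGATGGCtgtcttcgcct
MRPL49: cgtagcaggtaAAGATGGCagctaccatgt
MRPL50: ggatctcatcgAAGATGGCggcgcgatctg
MRPS27: tggtacgctccAAGATGGCtgcctccatag
MRPS30: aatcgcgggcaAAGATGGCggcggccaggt
They lie, in the same order, at chr5:1799854-1799883, chr17:75904860-75904889, chr17:38297170-38297199, chr15:88467362-88467391, chr12:6493223-6493252, chr11:65122333-65122362, chr9:101398577-101398606, chr5:72320206-72320235 and chr5:44808949-44808978.

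One pair of members faces each other: MRPL46 (chromosome 15, 88459476 to 88467419, minus strand) and MRPS11 (88467453 to 88480773, plus strand) start 34 bases apart in GENCODE 29 and 320 bases apart by their RefSeq starts. They had the lowest mean levels of the tested members. MRPL46, named here for its position after its values were seen, had 1.36, 1.50 and 1.73 FPKM in treated and 1.08, 1.07 and 1.18 FPKM in control libraries (log2 fold change 0.44 ± 0.127 SE, adjusted p = 0.00998). MRPS11 had 3.15, 3.07 and 3.34 FPKM in treated and 2.73, 2.50 and 2.56 FPKM in control libraries (0.26 ± 0.091, adjusted p = 0.0259). Both rose with groups apart, but MRPS11 did not pass without treated library 3, control library 2 or control library 3. For MRPL46, 11.3% of the exon length overlaps another gene on the same strand. The RefSeq promoter of MRPL46 (chr15:88467339-88467638, minus strand), which reaches into the shared stretch, is shown with the YY1 motif in capitals.
MRPL46 promoter: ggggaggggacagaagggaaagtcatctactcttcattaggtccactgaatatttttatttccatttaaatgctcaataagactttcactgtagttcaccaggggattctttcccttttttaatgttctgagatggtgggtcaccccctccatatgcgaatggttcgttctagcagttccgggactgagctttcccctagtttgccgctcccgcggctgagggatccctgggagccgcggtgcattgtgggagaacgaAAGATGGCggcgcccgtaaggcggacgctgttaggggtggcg

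In all, 18 members had a protein-coding gene on the opposite strand starting within 1000 bases upstream or shortly downstream of their own start. The downstream starts were MTBP at MRPL13 (distance -2) and PSMA2 at MRPL32 (distance -23). There were 19 pairs, which count MRPL46 and MRPS11 from both sides. In 14 pairs the partner was tested, and 10 partners were higher and 1 lower (median log2 fold change 0.26). Over all tested genes 25.3% were called higher and 25.3% lower. MRPL46 and MRPS11 are each counted as a partner of the other in these numbers and in those that follow. Of 9 such pairs with a called member, 6 had the partner called the same way. TCP1, a chaperonin subunit next to MRPL18, rose by 0.39, SKA3 next to MRPL57 by 0.33 and HELQ next to MRPS18C by 0.46, while ZNF189 next to MRPL50 fell (-0.50). MRPL30 fell (-0.34) beside MITD1, which rose (0.21). MRPL18 itself was 0.12 without treated library 3 and then did not pass. These partners were named after their values were seen.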

How the data were processed

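RNA-seq of 3 treated and 3 control libraries was used. Per the file headers, the authors deposited whole-number counts and FPKM per gene; counts were the tested unit and FPKM the printed level. The submitters' processing notes name cutadapt 1.9.1, HISAT2 2.0.1, HTSeq 0.6.1 and GRCh38; their settings, the annotation release and the strand setting are not stated, so reads of overlapping or antisense genes cannot be told apart. Depth was 15140022 to 20311261 counts per library, and counting error limits low genes most.

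Genes with a mean of at least 1 FPKM (12829) were tested with edgeR 4.0.16 (R 4.3.3): TMM scaling, group as the only term, quasi-likelihood F test, Benjamini-Hochberg over all tested genes, adjusted p threshold 0.05, SE as the absolute log2 fold change over the root of F. Alternatives were other scalings and filters, DESeq2 1.42.0, limma 3.58.1 on log2(FPKM + 1) and log2(FPKM + 0.1), a replicate block and leaving out each library. Depth-scaled log2 counts used an added 0.5. The script was run on simulated data with 200 changed genes. That is far fewer than were called here, so the simulation does not check calls at this share of changed genes. Positions come from GENCODE 29, matched by gene ID. Members and lists were chosen with earlier results of these data known. Named were the up to 5 smallest p in each direction per class, the highest and lowest levels, members under the filter, MRPS30, MRPS18A, MRPS36, MRPL12 and MRPL58, and up to 3 called genes per direction of each other list (2 for cytosolic ribosomal proteins); one gene this rule names is not reported here.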

Additional observations from a re-analysis of the deposited data

How the results depend on the processing

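Of the 34 called members, 24 (20 higher, 4 lower) were called in each of the 15 alternatives in which they were tested, and 0 reversed. The 10 others (MRPL18, MRPL24, MRPL36, MRPL38, MRPL46, MRPL49, MRPS11, MRPS26, MRPS27 and MRPS30) kept their direction and lost the call in at least 1 alternative. The member median stayed between 0.083 and 0.17 throughout. Without TMM factors 33 members rose and 5 fell, the median of all genes was 0.038 and 56.9% of all calls were higher, against 57.5% with limma on log2(FPKM + 1). MRPS18A, not called, turned to 0.022 without TMM factors, 0.0074 with no filter, 0.020 with limma on log2(FPKM + 1) and 0.022 on log2(FPKM + 0.1), and ranged from -0.10 to 0.046 with single libraries left out. Counted by structure, 3 large-subunit genes fell with limma at either pseudocount (4 members in all), and 1 small-subunit gene fell with limma, without TMM factors or with no filter. At a mean of at least 5 FPKM, 4099 genes were called and 5 small-subunit genes rose. With that filter 20 of 69 tested members rose (28.99%), against 28.7% of all 7144 tested genes, so the shares of rises were close. Falls remained less frequent among members, with 8 called lower (11.59%) against 28.68% of all tested genes. Placing proteins by structure turned the difference between subunit medians to -0.011. With single libraries left out, 23 to 33 members rose and 4 to 11 fell, 15 to 21 large-subunit genes by structure rose and 3 to 7 fell, 7 to 12 small-subunit genes rose and 1 to 4 fell, the difference by symbol was 0.0020 to 0.060, and 5292 to 6516 genes were called in all. The causes were not tested. Same-numbered libraries did not deviate together (correlations 0.021, 0.0089 and 0.026), so the numbers were not taken as pairs; with a replicate block 28 members rose, 7 fell and 6540 genes were called. Depth limits MRPL53, which had at most 10 counts.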

Other observations

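Pseudogene rows were listed for 36 members, 79 rows in all, and their counts reached at most 17.8% of those on the gene (MRPS31); 4 members were above 1%. In GENCODE 29 the exons of 41 members overlap another annotated gene, 25 of them over more than 10% of their length, 11 of which were among the 34 called members.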
